A study of Mus musculus with 7 samples.

Results

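The carbonic anhydrases are zinc enzymes that interconvert carbon dioxide and bicarbonate, and 10 genes of the family were examined here in mouse quadriceps: Car1, Car2, Car3, Car4, Car5b, Car8, Car9, Car12, Car13 and Car14. These were 10 of the 16 carbonic anhydrase genes with a probe on the array, which carried 31131 gene names in all. The members were chosen by their family name with the AR113Q minus WT differences of these same arrays already known, so the differences below are a description and carry no test. Single-dye Agilent arrays measured quadriceps RNA of 3-month-old (90-day-old) C57BL/6 mice, 4 labelled WT and 3 labelled AR113Q, 1 array per mouse. AR113Q mice carry a humanized knock-in allele with a long CAG tract and serve as a model of spinal and bulbar muscular atrophy (SBMA), a disease of motor neurons and muscle caused by such a polyglutamine expansion. A knock-in allele is present in every tissue of the mouse, so the muscle fiber is not the only cell that carries it. The labels call the controls WT, but the text of the study speaks of humanized knock-in controls with a shorter CAG tract. Its reporting form gives the mice as male, without naming these arrays. The comparison addresses which transcripts differed in this muscle before motor dysfunction.

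Carbonic anhydrases differ in where they sit. Car1, Car2, Car3 and Car13 are cytosolic, Car5b is mitochondrial, Car4 is anchored to the outer face of the membrane, Car9, Car12 and Car14 span the membrane with an extracellular catalytic domain, and Car8 has lost catalytic activity. In skeletal muscle Car3 is one of the most abundant soluble proteins, particularly in slow oxidative fibers, and it is also abundant in adipocytes, while Car4 and Car14 are found at the sarcolemma and sarcoplasmic reticulum and Car4 also on capillary endothelium. Together with bicarbonate, lactate and proton transporters the family helps working muscle to move carbon dioxide and acid out of the fiber.

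The members had 13 probes of 60 bases. The first 30 bases of those on which the results turn are shown 5′ to 3′ as the array lists them, each with the strand of its annotation, since what the array measures for each gene is hybridization to this sequence and since Car1, Car4 and Car8 each had a pair of probes that read differently. Positions are those of the whole probe on mm9, as the array annotation gives them. Capitals mark the codons CAC, any codon, CAC and TGG, which spell the histidine pair that helps to hold the catalytic zinc, with the tryptophan after it; these letters were searched in the listed strand only and occurred in 1 of the 13 member probes and in 0.0203% of the 39429 probes of the array.
Car3, chr3:14871781-14871840, plus strand: acatgcaaccgcagtgccttttgacatgat
Car1 (A_52_P317653), chr3:14767486-14767545, minus strand: attcacaaattttgacccatccagtctgct
Car1 (A_55_P2099952), chr3:14729567-14729626, plus strand: ggtccagccaacccaagactgcaaaaagta
Car8 (A_66_P126640), chr4:8068657-8068716, minus strand: ttagcactcctttatagtgacctaattaca
Car8 (A_51_P392005), chr4:8070545-8070604, minus strand: atctgattcagaatagaaacattactgtgt
Car4 (A_55_P2087182), chr11:84777667-84777726, plus strand: tgCACCTGCACTGGtcaaatgggaatgaca
Car4 (A_55_P2114680), chr11:84779487-84779546, plus strand: tgacctcctccccagccccccaattaaatg
The annotation placed the 2 Car1 probes on opposite strands. The Car13 probe (chr3:14662332-14662391), a Car1 probe, the Car3 probe and the Car2 probe (chr3:14900206-14900265) lay in this order on one stretch of chromosome 3.

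Values below are log2 of the background-subtracted spot intensity after quantile normalization across the 7 arrays, and a difference is AR113Q minus WT on this scale with the standard error (SE) of limma. A probe entered the fit when the scanner software marked it as well above background on 3 or more of the 7 arrays. It was called lower or higher where the adjusted p did not exceed 0.05 and the log2 difference was 1 or more in size. Each array had 18785 to 22013 probes well above background and 0 saturated spots, and the number of arrays limits the precision. The skeletal muscle markers (creatine kinase, myoglobin, skeletal actin and others, 8 of 8 tested) had a mean log2 signal of 15.98 to 16.11 on the WT arrays and of 15.57 to 15.96 on the AR113Q arrays, in keeping with muscle as the source. Some arrays stood apart within their group. The 10 slow fiber genes had a mean log2 signal of 10.18 in WT replicate 2, 10.02 in WT replicate 3 and 11.43 in AR113Q replicate 3, against 6.85 to 7.25 on the other arrays. The 7 erythrocyte markers that were tested had mean log2 signals of 11.4 in WT replicate 3 and 12.09 in WT replicate 4, against 10.14 to 10.37 on the other arrays. The differences of the members were therefore also computed without those arrays.

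Of the 13 member probes 9 entered the fit, and they represented 8 of the 10 genes. Represented by its brightest kept probe, 3 genes were called lower (Car3, Car8 and Car1) and 0 were called higher, where 13.1% of the 16577 genes tested were called lower and 11.2% higher. Over probes, 3 were called lower and 1 higher (a Car4 probe), against 12.6% and 12.2% of the 20991 probes tested. The groups did not overlap for these same 4 probes, and over all probes they did not overlap in 24.2% with AR113Q lower and in 25.4% with AR113Q higher. Since this contrast chose the family, nothing is read from these counts. Car1 and Car8 entered the fit through the WT arrays alone, so a lower value in AR113Q followed from their passing the filter. Of the 6 members measured in both groups, 1 was called lower (Car3) and 0 higher.

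**Figure D1:**
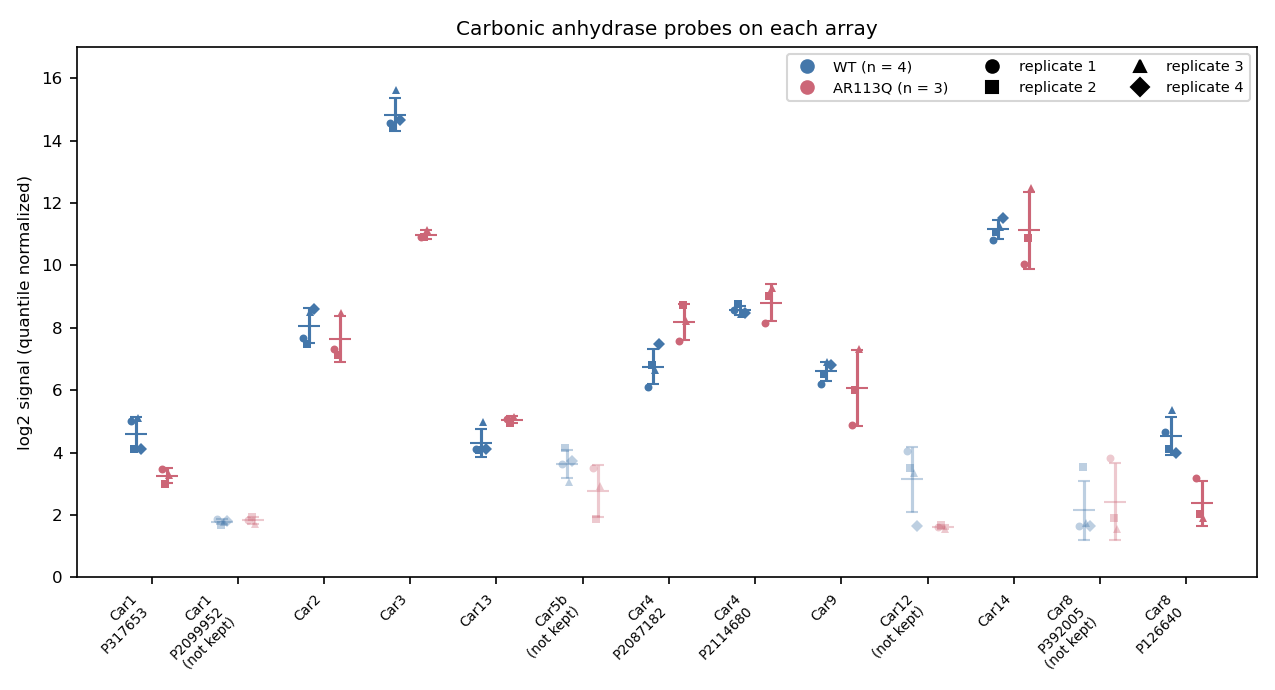
Log2 signal of each of the 13 carbonic anhydrase probes (y axis) on each array, WT in blue (n = 4) and AR113Q in red (n = 3), with a marker per replicate number and the mean and SD as bars; pale symbols are the 4 probes that did not enter the fit. The 3 AR113Q values of Car3 lie between 10.9 and 11.14, below all 4 WT values, while those of Car14 spread from 10.03 to 12.47 around the WT values. Levels of different probes are not comparable.

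Car3, the muscle and fat isoform of low catalytic activity, had the largest difference of the members measured in both groups. Its log2 signal was 14.58, 14.46, 15.61 and 14.67 in WT replicates 1 to 4 and 10.91, 10.9 and 11.14 in AR113Q replicates 1 to 3. Each of the 7 arrays read the probe well above background, the lowest WT array lay far above the highest AR113Q array, and the AR113Q values spread less (SD 0.13, n = 3) than the WT values (SD 0.53, n = 4). The difference was -3.85 (SE 0.28), 14.4-fold lower in AR113Q. WT replicate 3 was the highest of its group. Slide 2 alone carried both genotypes (WT replicate 2 with AR113Q replicate 1), and there the difference was -3.55. Over all 24 settings that gave a value it ran from -3.97 to -3.54, though several of these cannot move the difference by design or repeat another setting.

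Because Car3 is abundant in fat and in slow fibers, the markers of both were set beside it. Of the 9 adipocyte markers 6 were called lower and 1 higher, where 13.1% of all genes were called lower and 11.2% higher. Their median log2 difference was -1.39 against -0.01 over all genes tested. Their mean log2 signal was 10.35 to 11.34 in WT and 9.34 to 9.86 in AR113Q, and the log2 of their summed signal was 16.26 to 17.1 in WT and 16.69 to 16.8 in AR113Q. Plin4, a lipid droplet coat protein and the brightest of them in AR113Q, weighs on that sum. It had 13.75 to 15.2 in WT and 15.97 to 16.05 in AR113Q and rose by 1.57 (SE 0.33, adjusted p = 0.0060). Adipoq, the hormone adiponectin, had 11.26 to 12.27 in WT and 8.31 to 9.71 in AR113Q and fell by 2.71 on the log2 scale (SE 0.39, adjusted p = 0.0011). All 9 passed the filter on dim probes, but Acvr1c, 1 of the 6 called lower, was well above background on 4 WT and 0 AR113Q arrays and so passed through WT alone. Over the 8 markers measured in both groups, 5 were called lower and 1 higher, with a median of -1.21. The part of adipocytes in the Car3 difference was not tested. Among the 10 slow fiber genes 1 was called higher and 0 lower, with a median difference of 0.14. In WT replicates 1 and 4 and AR113Q replicates 1 and 2, the arrays with low slow fiber genes, Car3 had 14.58 and 14.67 against 10.91 and 10.9, and the difference over these 4 arrays was -3.72 (SE 0.21). In whole muscle, fewer cells of a type and less RNA per cell cannot be told apart.

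By Pearson correlation of log2 signal over the 7 arrays, the genes most like Car3 among the 13685 others well above background on all of them were Mgmt, a DNA repair enzyme (r = 0.997), Fam25c (r = 0.996) and Uggt2, a glycoprotein folding sensor of the endoplasmic reticulum (r = 0.996). Their own differences were -0.86 (SE 0.15), -2.05 (SE 0.19) and -0.95 (SE 0.14), and without background subtraction those of Fam25c and Uggt2 were -0.63 and -0.26. The 7 points share the genotype contrast, and no p is given.

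Car2, a fast cytosolic isoform that is abundant in erythrocytes, had log2 signals of 7.68, 7.49, 8.5 and 8.59 in WT and 7.32, 7.13 and 8.47 in AR113Q. The groups overlapped, and the difference of -0.42 (SE 0.40) was about 1 SE. The highest arrays were WT replicates 3 and 4 and AR113Q replicate 3. WT replicates 3 and 4 were those with high erythrocyte markers, and without them the Car2 difference was 0.06 (SE 0.42). Without AR113Q replicate 3 it was -0.84 (SE 0.35).

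Car1, the other isoform known for erythrocytes, had a readable probe and one that was dim. The first gave 5.02, 4.13, 5.1 and 4.1 in WT and 3.48, 3.01 and 3.29 in AR113Q, a difference of -1.33 (SE 0.30). It was well above background on 4 of 4 WT and 0 of 3 AR113Q arrays, so the AR113Q level is only a bound. On the background-subtracted scale it was at least 1.95-fold lower against the lowest well-above-background signal of each AR113Q array. This bound sets the mean of the WT arrays against the mean over the AR113Q arrays of the probe's own signal or, if higher, the dimmest signal still well above background there. It depends on the background correction, since the difference was -0.27 (SE 0.12) with another one (normexp). On slide 2 the difference was -0.64. The second Car1 probe was well above background on 0 of 7 arrays, with 1.68 to 1.87 in WT and 1.7 to 1.94 in AR113Q. The difference of the first probe was not called without WT replicates 2 and 3 and AR113Q replicate 3, the arrays with high slow fiber genes, where it was -1.31 (SE 0.38). Without WT replicates 3 and 4 it was -1.31 (SE 0.33). Since the AR113Q level is a bound, none of these values is a measured size.

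Of the 14 erythrocyte markers listed 13 were on the array, 7 were tested and 0 were called by limma. At an unadjusted p under 0.05 there was 1 of them, where 8532 of the 16577 genes tested had such a p. Alas2, the heme synthesis enzyme of red cell precursors, had 9.06 to 12.37 in WT and 9.16 to 9.37 in AR113Q, a difference of -1.13 (SE 0.76, adjusted p = 0.26) that was -0.48 without WT replicate 4 and -1.58 without WT replicate 1. Slc4a1, the red cell anion exchanger, had the lowest difference of the list at -1.45 (SE 0.61, adjusted p = 0.086). It was called lower with scaling to the 75th percentile (-1.67, adjusted p = 0.042) and without WT replicate 2 (-1.87, adjusted p = 0.032), and was -0.93 without WT replicate 4 (adjusted p = 0.13). Hba-a2, an alpha globin, had the highest at -0.12 (SE 0.31, adjusted p = 0.77). The log2 of the summed signal of the list was 17.06 to 18.74 in WT and 17.33 to 17.56 in AR113Q, and its part in the Car1 and Car2 values was not tested beyond leaving out those arrays.

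Car13, a cytosolic isoform found in many tissues, had 4.12, 4.07, 4.98 and 4.1 in WT and 5.09, 4.94 and 5.15 in AR113Q. Only WT replicate 3 reached the AR113Q range. The probe was well above background on 2 of 4 WT and on 3 of 3 AR113Q arrays, and the difference of 0.74 (SE 0.25) stayed under the threshold of 1 on the log2 scale. Without WT replicate 3 it was 0.96 (SE 0.17). It shrank to 0.18 (SE 0.11) with another background correction (normexp), to 0.16 (SE 0.11) without background subtraction and to 0.47 (SE 0.24) with scaling to the 75th percentile.

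Car5b, the mitochondrial member, did not enter the fit: its probe was well above background on 1 of 4 WT and 0 of 3 AR113Q arrays, with 3.05 to 4.14 and 1.88 to 3.51. No difference is given for it.

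Car4, which is anchored to the cell surface and serves both muscle membrane and capillaries, had a pair of probes that disagreed. The probe that carries the zinc site codons gave 6.09, 6.82, 6.65 and 7.47 in WT and 7.58, 8.72 and 8.23 in AR113Q. Every AR113Q array lay above every WT array, though AR113Q replicate 1 and WT replicate 4 were close, and the difference was 1.42 (SE 0.36), 2.67-fold higher. The probe farther along the plus strand, which had the higher mean and represents the gene, gave 8.58, 8.76, 8.45 and 8.46 in WT and 8.14, 9.01 and 9.27 in AR113Q. Here the groups overlapped, AR113Q replicate 1 was the lowest array of all, and the difference was 0.24 (SE 0.27). On the slide with both genotypes the first probe differed by 0.75 and the second by -0.62, and without AR113Q replicate 1 they differed by 1.71 (SE 0.37) and 0.57 (SE 0.17). Without AR113Q replicate 2 the first probe differed by 1.14 (SE 0.39) and was not called, nor was it without the arrays with high slow fiber genes (1.37, SE 0.58). It also stayed under the threshold of 1 with normexp (0.90, SE 0.21), without background subtraction (0.96, SE 0.23) and with the authors' normalized values (0.72, SE 0.18).

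Of the 10 endothelial markers 1 was called lower and 0 higher, where 13.1% of all genes were called lower and 11.2% higher. Their median difference was -0.13, and the log2 of their summed signal was 14.19 to 14.42 in WT and 14 to 14.22 in AR113Q. Vwf, von Willebrand factor, fell by 1.05 (SE 0.25, adjusted p = 0.0096), though by less than 1 without WT replicate 3 (-0.96) or AR113Q replicate 2 (-0.84), with scaling to the 75th percentile (-0.95) and with the authors' values (-0.99), and Pecam1, an endothelial junction protein, had a difference of 0.60 (SE 0.16, adjusted p = 0.019), under the threshold of 1. Their part in the Car4 values was not tested.

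Car9, the isoform best known as a target of the hypoxia-inducible factors, had 6.21, 6.52, 6.89 and 6.8 in WT and 4.9, 6 and 7.31 in AR113Q. The AR113Q arrays held both the lowest and the highest value, and the difference was -0.53 (SE 0.49). AR113Q replicate 3, in which slow fiber genes were highest, was also highest for Car9. Without it the difference was -1.15 (SE 0.34) and passed the threshold for a call, and without AR113Q replicate 1 it was 0.05 (SE 0.38). On slide 2 it was -1.61, and without background subtraction -0.10 (SE 0.22).

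Because Car9 is a textbook hypoxia gene, its promoter is shown, from 250 bases before to 50 after the gene start, taken from RefSeq on GRCm38.p6 at chr4:43506776-43507075, plus strand. Capitals mark the core of the hypoxia response element, ACGTG, searched on both strands.
Car9 promoter: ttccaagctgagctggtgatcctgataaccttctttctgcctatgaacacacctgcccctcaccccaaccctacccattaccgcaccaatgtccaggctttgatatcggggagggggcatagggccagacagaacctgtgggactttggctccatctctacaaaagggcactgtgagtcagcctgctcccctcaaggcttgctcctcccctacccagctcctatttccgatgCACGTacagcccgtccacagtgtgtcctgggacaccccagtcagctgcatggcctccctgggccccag
A match of this core lay close before the Car9 gene start, as its reverse complement. The promoters of Car4 and Car14 also held 1 match each and those of Car5b and Car12 held none, and 19.6% of the 32851 promoters of this length held at least 1. These were the 5 members of 10 with an entry in the promoter table, and a match is a description of letters only.

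All 16 hypoxia-inducible genes were tested: 5 were called lower, 3 higher and 8 neither, where 13.1% of all genes were called lower and 11.2% higher, and the median difference was -0.19. Vegfa, the angiogenic growth factor, had 12.21 to 12.45 in WT and 9.46 to 10.23 in AR113Q and fell by 2.52 (SE 0.20, adjusted p = 1.3e-04). Egln3, a prolyl hydroxylase that marks the hypoxia-inducible factors for degradation, had 7.29 to 8.32 in WT and 10.07 to 10.85 in AR113Q and rose by 2.69 (SE 0.31, adjusted p = 4.8e-04).

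Car14, a membrane isoform of the sarcolemma and sarcoplasmic reticulum, had 10.8, 11.08, 11.22 and 11.53 in WT and 10.03, 10.89 and 12.47 in AR113Q. The AR113Q values enclosed those of WT, with an SD of 1.24 (n = 3) against 0.30 (n = 4), and the difference was -0.03 (SE 0.50). AR113Q replicate 3 was again the highest array. Without it the difference was -0.70 (SE 0.30), without AR113Q replicate 1 it was 0.52 (SE 0.43), and on slide 2 it was -1.05. Car12, the membrane isoform of many secretory epithelia, was well above background on 1 of 4 WT and 0 of 3 AR113Q arrays, with 1.66 to 4.05 and 1.56 to 1.67, and did not enter the fit.

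Car8, which binds and restrains the inositol trisphosphate receptor rather than hydrating carbon dioxide, had 4.65, 4.11, 5.35 and 4 in WT and 3.2, 2.04 and 1.89 in AR113Q by its kept probe. The groups did not overlap, and the difference was -2.15 (SE 0.41). The probe was well above background on 4 of 4 WT and 0 of 3 AR113Q arrays. As a bound on the background-subtracted scale it was at least 1.87-fold lower in AR113Q. That bound depends on the background correction, since the difference was -0.18 (SE 0.08) with the authors' values. On slide 2 the difference was -0.90. The second Car8 probe, at the other of the positions given above, was well above background on 1 of 4 WT and 0 of 3 AR113Q arrays, with 1.64 to 3.54 and 1.54 to 3.83, and gave no difference. Without subtraction of the background, where dim spots move toward a common floor, the kept probe differed by -0.32 (SE 0.12) and Car1 by -0.29 (SE 0.12), while Car3 differed by -3.78 (SE 0.26).

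**Figure D2:**
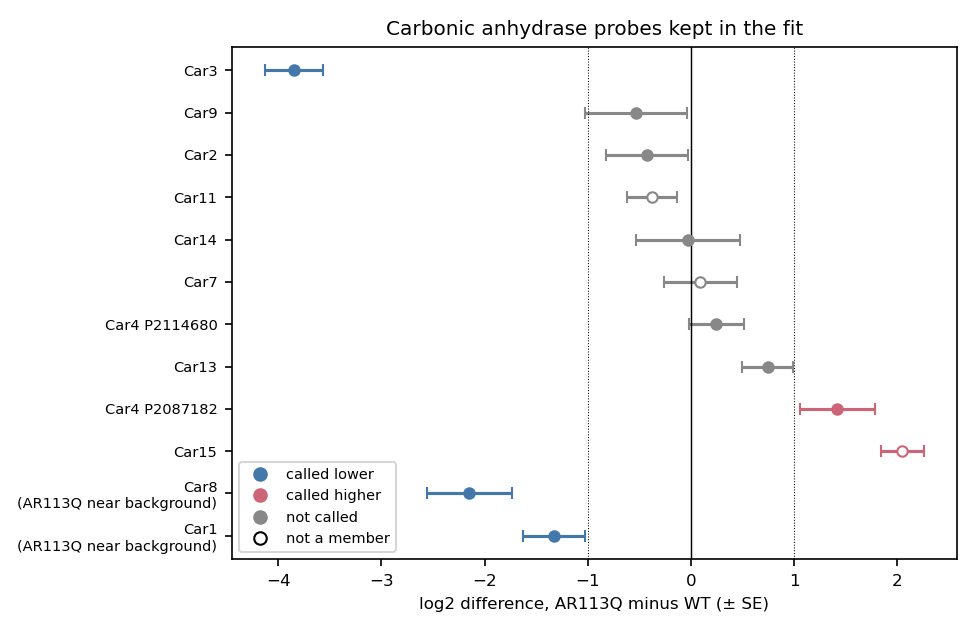
Log2 difference, AR113Q minus WT, with its SE (x axis) for the 12 carbonic anhydrase probes that entered the fit, ordered by value except for Car8 and Car1 at the bottom, whose AR113Q level is only a bound so that their place in the order is not measured; open symbols are genes outside the 10 members, and dotted lines mark -1 and 1. Among the other probes Car3 at -3.85 was lowest and Car15 at 2.05 highest, and the 2 Car4 probes lie at 0.24 and 1.42.

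Of the other 6 carbonic anhydrase genes 3 were tested. Car15, a membrane-anchored isoform, had 5.25, 5.41, 5.84 and 5.84 in WT and 7.39, 7.68 and 7.83 in AR113Q, and was well above background on all 7 arrays. All AR113Q arrays lay above all WT arrays, and it rose by 2.05 (SE 0.21, adjusted p = 3.1e-04), 4.14-fold. The difference was smaller with normexp (1.08), without background subtraction (1.16) and with the authors' values (0.78), where it was no longer called. Car11, an isoform without catalytic activity, had 8.2 to 8.56 in WT and 7.45 to 8.44 in AR113Q, a difference of -0.38 (SE 0.24, adjusted p = 0.23) that was -0.10 without AR113Q replicate 3 and -0.60 without AR113Q replicate 2. Car7, a cytosolic isoform best known from brain, had 6.94 to 8.19 in WT and 7.24 to 8.35 in AR113Q, a difference of 0.09 (SE 0.35, adjusted p = 0.86). Car5a, Car6 and Car10 were well above background on 0 of 7 arrays.

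The genes that carry bicarbonate, lactate and protons across the membrane or use bicarbonate were listed without regard to how they moved, although results of these arrays were known. Of 36 listed genes 27 were tested, and 4 were called lower, 2 higher and 21 neither, where 13.1% of all genes were called lower and 11.2% higher. The median difference was -0.24. Among the 8 bicarbonate transporters tested, 3 were called lower and 1 higher. Slc26a6, an apical anion exchanger, had 10.05, 10.35, 10.04 and 9.93 in WT and 7.11, 7.72 and 7.47 in AR113Q, and fell by 2.66 (SE 0.19, adjusted p = 1.0e-04), or by 1.74 with the authors' values. Slc4a4, the sodium bicarbonate cotransporter NBCe1, had 6.88, 7.13, 7.22 and 7.15 in WT and 4.18, 3.95 and 5.31 in AR113Q, where 2 of 3 arrays were well above background, and fell by 2.62 (SE 0.31, adjusted p = 5.4e-04). Its difference was -1.02 with normexp, -1.07 without background subtraction and -0.64 with the authors' values, where the call was lost. Slc4a3, an anion exchanger of heart and brain, named here because the count is small and outside the rule for named genes, fell by 1.24 (SE 0.15, adjusted p = 6.4e-04). Its dimmer kept probe fell by 0.89 (SE 0.16) and was not called, and with the authors' values the gene was not called. Slc4a8, a sodium-driven chloride bicarbonate exchanger, rose by 1.16 (SE 0.37, adjusted p = 0.034), with 5.44 to 6.89 in WT and 7.07 to 7.79 in AR113Q, and this call was lost without WT replicate 1, where the difference was 0.88 (adjusted p = 0.058), and without WT replicate 4, AR113Q replicate 1 or AR113Q replicate 3, where adjusted p was 0.076, 0.085 and 0.096. With normexp, without background subtraction and with the authors' values it was 0.66, 0.69 and 0.50 and not called. Nor was it called with replicate number as a block (adjusted p = 0.065), array weights (0.081), no filter on dim probes (0.085) or slide as a fixed effect. The call was also lost without the arrays with high erythrocyte markers (0.063).

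Among 11 monocarboxylate and proton transporters, 1 was called lower and 0 higher. Slc16a3, the lactate exporter MCT4 of glycolytic fibers, had 14.97, 15.06, 14.94 and 15.37 in WT and 11.16, 13.02 and 14.48 in AR113Q. The AR113Q arrays were spread over a wide range, all of it below WT, and the difference was -2.20 (SE 0.65, adjusted p = 0.025). The call was lost in turn without WT replicate 1, 2 or 4 or AR113Q replicate 2, with adjusted p from 0.050 to 0.060, with no filter on dim probes (0.073) and without the arrays with high erythrocyte markers (0.11). The difference was -1.33 without AR113Q replicate 1 and -3.00 without AR113Q replicate 3. Bsg, the chaperone that brings both lactate transporters to the surface, had 13.28 to 13.43 in WT and 12.58 to 12.71 in AR113Q, a difference of -0.71 (SE 0.14, adjusted p = 0.0042) that stayed under the threshold of 1. Slc16a1, the transporter MCT1 of oxidative fibers, had 3.38 to 4.43 in WT and 3.03 to 4.4 in AR113Q, a difference of -0.32 (SE 0.38, adjusted p = 0.53). Its probe was near the background, well above it on 3 of 4 WT and 2 of 3 AR113Q arrays. The difference was -0.10 without background subtraction, -0.05 to -0.73 with 1 array left out, and -1.17 (adjusted p = 0.021) without the arrays with high slow fiber genes, where it was called.

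Among 8 bicarbonate-using enzymes, 1 was called higher and 0 lower. Acacb, the acetyl-CoA carboxylase of muscle mitochondria, had 12.66, 13.4, 13.06 and 13.11 in WT and 14.64, 14.19 and 14.35 in AR113Q, and rose by 1.33 (SE 0.21, adjusted p = 0.0017). Pcx, pyruvate carboxylase, had 11.76 to 12.34 in WT and 11.57 to 11.76 in AR113Q, a difference of -0.43 (SE 0.18, adjusted p = 0.077).

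**Figure D3:**
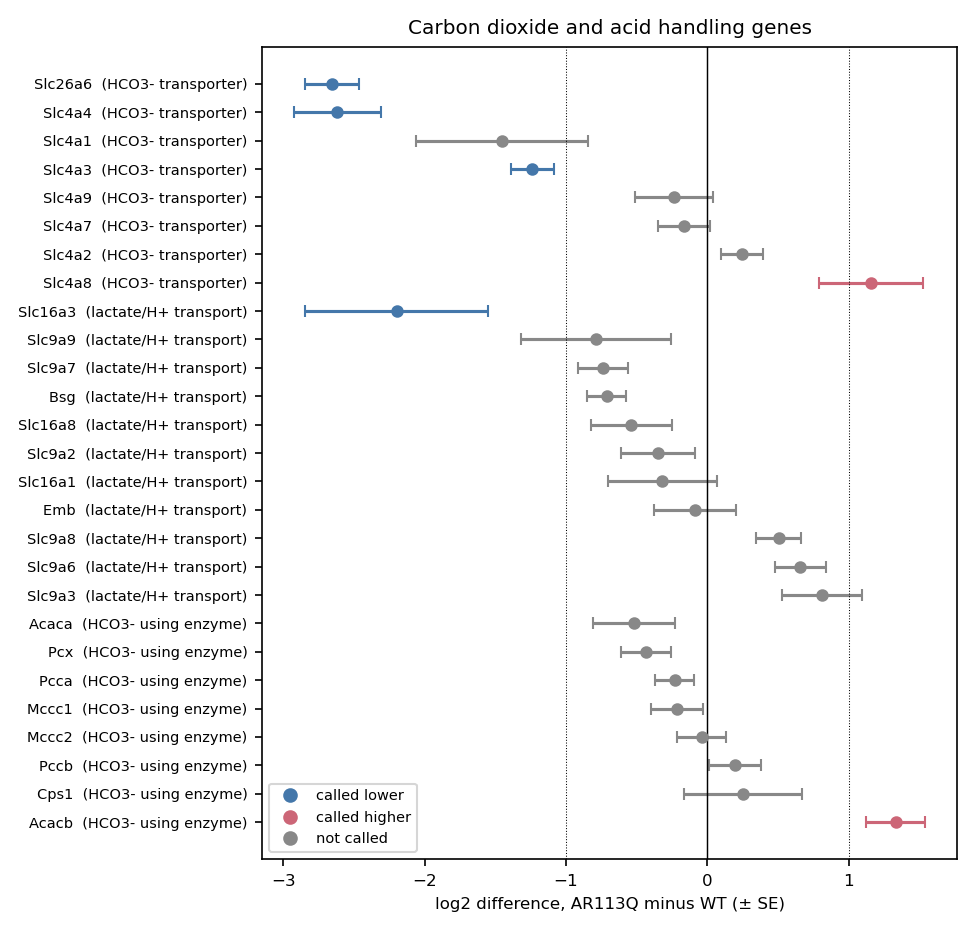
Log2 difference, AR113Q minus WT, with its SE (x axis) for the 27 tested genes of bicarbonate, lactate and proton handling, grouped by role and ordered by value within a role; dotted lines mark -1 and 1. Slc26a6, Slc4a4, Slc4a3 and Slc16a3 were called lower and Slc4a8 and Acacb higher, while the other 21 genes were called neither way.

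Fiber type lists completed the description. Of 11 fast fiber genes 2 were called lower and 0 higher, where 13.1% of all genes were called lower and 11.2% higher. Casq1, the calcium buffer of the sarcoplasmic reticulum, fell by 3.05 (SE 0.37, adjusted p = 6.1e-04), while Myh1, the fast IIx myosin, had the highest difference of the list at 0.31 (SE 0.53, adjusted p = 0.67) and Myh4, the fast IIb myosin, had -0.34 (SE 0.18, adjusted p = 0.17). Of the slow fiber genes, Atp2a2, the slow calcium pump, rose by 1.42 (SE 0.42, adjusted p = 0.025), a call lost on leaving out WT replicate 1, WT replicate 4, AR113Q replicate 1 or AR113Q replicate 3 in turn (adjusted p from 0.051 to 0.074), and also with no filter on dim probes (0.068), with array weights (0.054) and without the arrays with high erythrocyte markers (0.087). Myl2, a slow myosin light chain, had -1.28 (SE 2.13, adjusted p = 0.65), and Myh7, the slow myosin heavy chain, had 4.95 to 12.56 in WT and 6.22 to 13.59 in AR113Q, a difference of -0.19 (SE 2.34, adjusted p = 0.95). Both groups held arrays of high and of low Myh7 and Myl2 signal. Of the 8 skeletal muscle markers 0 were called by limma, with 3 at an unadjusted p under 0.05, where 8532 of the 16577 genes tested had such a p. Ckm, muscle creatine kinase, had the lowest difference at -0.80 (SE 0.19, adjusted p = 0.010). It was called lower at -1.26 (adjusted p = 0.0038) with scaling to the 75th percentile and at -1.09 (adjusted p = 0.020) without the arrays with high slow fiber genes. Des, desmin, had the highest at 0.41 (SE 0.19, adjusted p = 0.11).

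**Figure D4:**
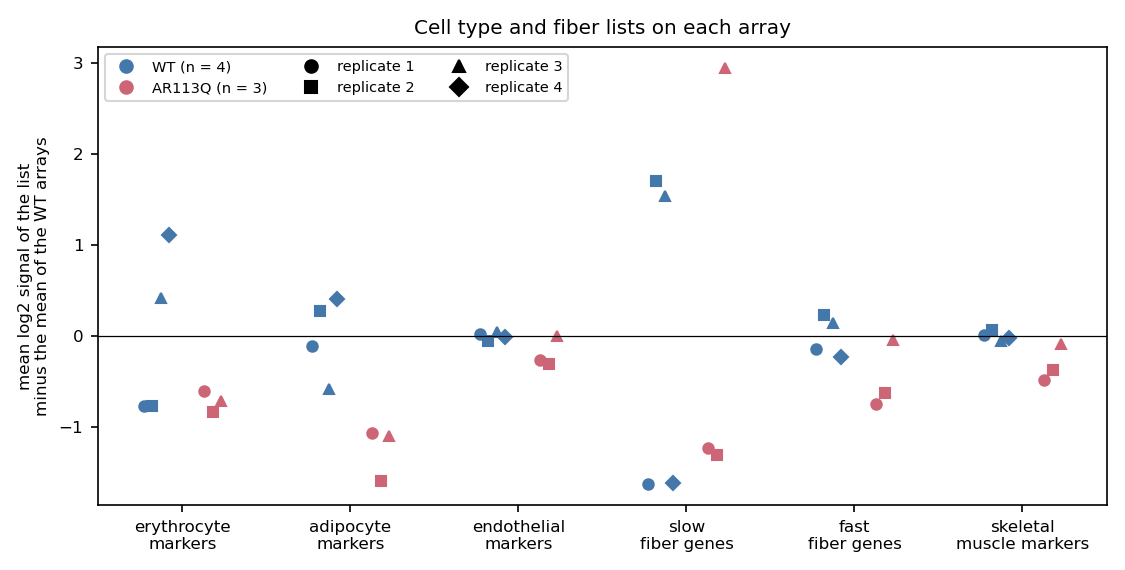
Mean log2 signal of each cell type or fiber list on each array minus the mean of the 4 WT arrays (y axis), WT in blue and AR113Q in red, with a marker per replicate number. Slow fiber genes were high in WT replicates 2 and 3 and AR113Q replicate 3, and erythrocyte markers in WT replicates 3 and 4. The 3 AR113Q arrays lay below all WT arrays for the adipocyte markers and, by a narrow gap, for the skeletal muscle markers.

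**Figure D5:**
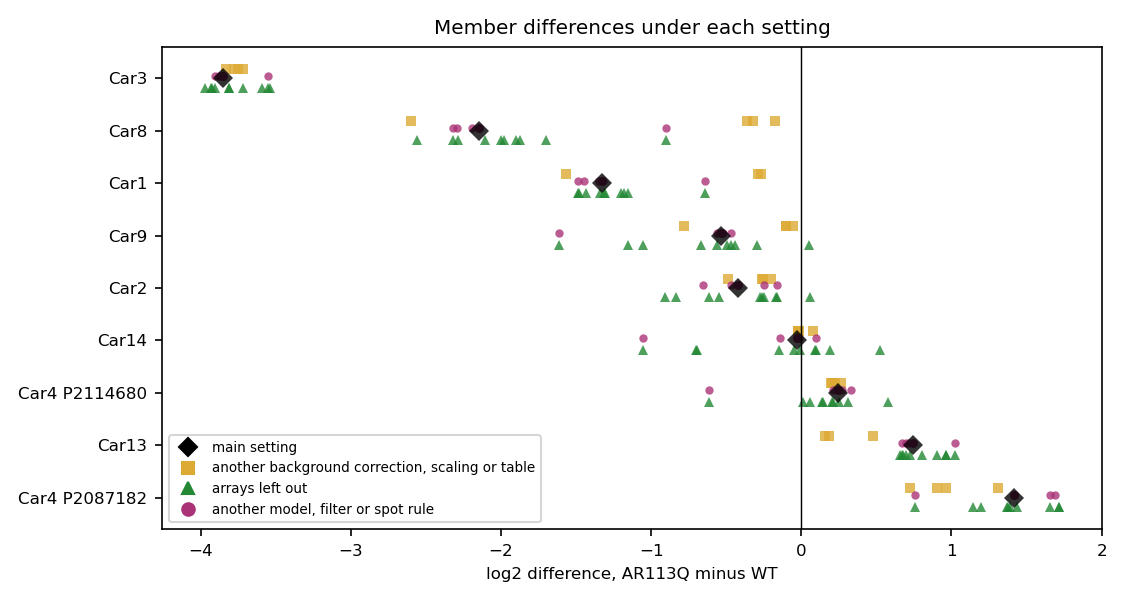
Log2 difference, AR113Q minus WT (x axis), of each member probe in the fit under the main setting (diamond), other background corrections, scalings or tables (squares), arrays left out (triangles) and other models or filters (circles). Car3 stays between -3.97 and -3.54, Car8, Car1, Car13, Car9 and the Car4 probe at 1.42 move toward 0 when the background is handled otherwise, and the values of Car9, Car2, Car14 and the brighter Car4 probe lie on both sides of 0.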

How the data were processed

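Quadriceps RNA of 4 WT and 3 AR113Q mice was measured on single-dye Agilent arrays, grouped by the labels. The authors extracted spots with Feature Extraction 10.7.3.1 and deposited intensities per spot, background-subtracted and not normalized between arrays, with mean intensities and local background medians. They also deposited a table of log2 values, quantile normalized per the methods, whose values followed the mean intensity of the same array (r from 0.992 to 0.999 over 18592 probes), that is, without background subtraction; its column medians were 8.92 to 8.93. Log2 intensities of the 43020 spots that are not controls were quantile normalized here, outlier spots left out, and spots of a probe averaged; 20991 of 39429 probes, those well above background on 3 or more of the 7 arrays, were kept. For dim spots, subtracting the background widens the spread of log2 values.

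The lmFit and eBayes functions of limma 3.58.1 (R 4.3.3) were applied to probes, and p-values adjusted by Benjamini-Hochberg over all kept probes; the procedure was tested on simulated data. The brightest kept probe, by mean over the arrays, stood for a gene. RefSeq accessions of the GRCm38.p6 table named 28330 probes. Each mouse was 1 replicate.

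The members and gene lists were chosen with earlier results of these data known. Named were every probe of the members and of the other carbonic anhydrases; of the bicarbonate, lactate and proton list the 3 most increased and 3 most decreased called genes with Slc16a1, Slc16a3, Bsg, Slc4a4 and Pcx; the extremes of each other list with Vegfa, Alas2, Adipoq, Pecam1, Myh7 and Myh4; and the 3 genes most correlated with the brightest member and with the most different one, both Car3. Alternatives were other background corrections, scalings, filters and gene summaries, the authors' log2 values, outlier spots kept, an intensity trend, array weights, slide or replicate number as a block, no fold threshold, and each array left out. Leaving out the arrays with high slow fiber or erythrocyte genes, and slide 2 alone, were added after the data were examined. Items withheld from this text are not reported here and are not in the counts of the gene lists. The arrays lay on 5 slides, of which 1 held both genotypes.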

Additional observations from a re-analysis of the deposited data

Results flagged for a closer look

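In the group of 4 WT arrays, 40 probes named in the text were examined for an array far from the others; the 3 AR113Q arrays are too few for this. One stood out: Car13 in WT replicate 3, with 4.98 against 4.12 for the next array, a gap of 0.948 of the whole range, past Dixon's critical value for 4 samples. Chance gives a gap past that critical value in about 1 group of 20, and 40 groups were searched. Without WT replicate 3 the Car13 difference was 0.96 (SE 0.17) in place of 0.74 (SE 0.25), and without background subtraction, on all arrays, 0.16 (SE 0.11).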

How the results depend on the processing

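The count of members called lower was 3 with scaling to the 75th percentile, no filter, the mean over probes, outlier spots kept, an intensity trend, a random slide block, array weights and the replicate block; 2 of the 3, Car1 and Car8, passed the filter through WT alone, so where the filter was used it fixed this count in part. It was 1, Car3, with normexp correction, without background subtraction, with the authors' normalized values, and with a filter asking for all 7 arrays; that filter did not keep Car8 and Car1, the authors' table holds no Car1 value, and neither gene was called under these 4 settings where it had a value. Over all genes, 2179 lower and 1853 higher calls became 941 and 803 with normexp, 1025 and 869 without background subtraction, 740 and 624 with the authors' values, and 3735 and 3479 with adjusted p alone. With slide as a fixed effect 0 of 16556 genes were called by limma, members included, with 6154 genes, 3 members and 7 transport genes at an unadjusted p under 0.05; the difference then rests on the single pair of arrays on slide 2. Leaving out each array gave 3 to 4, the fourth being Car9 without AR113Q replicate 3, and leaving out the arrays with high slow fiber genes gave 2. With adjusted p alone 1 member, Car13, was called higher. Of the bicarbonate, lactate and proton (transport) genes, those called lower numbered 2 with the authors' values and 0 with slide as a fixed effect. Among them Slc4a1 gained a lower call with scaling to the 75th percentile, and Slc16a3 lost its call without a filter. Those called higher numbered 0 with slide as a fixed effect, 5 with adjusted p alone, and 1 with normexp, without background subtraction, with the authors' values, without a filter, with the replicate block, with array weights and without the arrays with high erythrocyte markers. Leaving out each array gave 3 to 4 lower and 1 to 3 higher. The replicate numbers did not pair the samples: same-numbered arrays had deviations correlated at 0.041, -0.016 and 0.156, and AR113Q replicates 1 and 2 correlated best with WT arrays of another number. With them as a block, the counts were 3 lower and 0 higher for the members and 4 lower and 1 higher for the transport genes.

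Of 711 values of genes outside the members, 47 lost a call and 11 gained one. Signs turned only for genes that were not called, among the members Car2, Car9, Car14 and the brighter Car4 probe. With slide as a fixed effect Car7 was -0.56, Slc4a1 0.33, Hba-a2 0.44, Myh1 -0.98 and Alas2 0.24. With the replicate block Car7 was -0.13 and Hba-a2 0.0586, and with array weights Car7 was -0.0303 and Myh1 -0.0297. Without the arrays with high slow fiber genes Car7 was -0.21 and Myh7 0.63, and without those with high erythrocyte markers Car7 was -0.31, Hba-a2 0.38, Alas2 0.21 and Myh7 0.0644. Leaving out each array in turn moved Car7 from -0.24 to 0.32, Hba-a2 from -0.32 to 0.0586, Myh7 from -2.58 to 1.11, Myl2 from -3.86 to 0.22 and Myh1 from -0.38 to 0.67. Car12 and Car5b lay near the background and gave no difference.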
